A study of Drosophila melanogaster with 3 samples.

Results

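The X chromosome euchromatin of the *D. melanogaster* strain ORw1118 carried 251 of the 1702 called insertions of transposable elements (TEs) that are absent from the reference genome. These are the calls on X that start less than 20 Mb from the distal end of the chromosome, in Release 6 coordinates. The other X calls, 26 in number, lie nearer to the pericentromeric heterochromatin (PCH) and were kept apart, and the 785 calls on 3L and 3R served as the reference. The calls come from genomic DNA of 3 biological replicates of 100 adult Oregon-R w1118 females each, raised at 25°C on standard cornmeal medium with yeast extract. The authors pooled the replicates before calling, so there is 1 value per call, no spread between replicates and only 1 strain, and every interval and p below covers counting error over reads or loci only. The strain carries w1118, a partial deletion of the eye color gene *white* on X, so its X calls are from chromosomes with that allele.

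TEs are DNA elements that copy or move themselves within a genome. LTR retrotransposons such as *roo* copy through RNA and are flanked by long terminal repeats, non-LTR retrotransposons such as *jockey* copy through RNA without such repeats, and terminal inverted repeat (TIR) elements such as *hobo* move as DNA. Foldback elements (*FB*), which have very long inverted repeats, were counted among the TIR elements. A call rests on supporting reads, which join TE sequence to unique sequence of the chromosome, and it is set against reference reads, which run across the same place with no TE. The coverage ratio of a call is its supporting reads over its reference reads plus 1, so that a high value is seen where few reads of the pooled flies cross an empty site and a low value where most do.

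On X the 251 calls had a median of 53 supporting reads (range 4 to 173, 15958 reads in all) and belonged to 38 families. Their coverage ratios ran from 0.0612 to 13.2 with a median of 1.71 (interquartile range 0.513 to 3.69). The median was 0.841 over the calls on 3L and 3R. Sites with calls on X had a median of 33.0 reference reads against 39.5 on 3L and 3R, and a median of 53 supporting reads against 35. Both parts of the ratio thus differed, with more supporting and fewer reference reads on X. The upper class of at least 3 had medians of 116 supporting and 27.2 reference reads on X and 119 and 29.2 on 3L and 3R. The lower class of under 1 had 14 and 43.9 on X and 16 and 45.0 on 3L and 3R. The classes are defined by these same read numbers, so their closeness within a class is no separate result.

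Of the X calls, 85 reached a coverage ratio of 3 (33.9%, with an exact 95% confidence interval from 28.0% to 40.1%), 73 a ratio from 1 to under 3, and 93 a ratio under 1 (37.1%, 31.1% to 43.4%). Over all 1702 calls, 16.0% had a ratio of at least 3 and 52.1% a ratio under 1. On 3L and 3R the class of at least 3 held 92 of 785 calls (11.7%, 9.55% to 14.2%), a difference of 22.1 percentage points from X (two-sided Fisher's exact test, Benjamini-Hochberg adjusted p = 2.39e-13 over the 12 comparisons made). The class under 1 held 427 calls there (54.4%, adjusted p = 8.83e-06 by the same exact test). The share of at least 3 was not even over the reference arms, with 67 of 389 calls on 3L (17.2%) and 25 of 396 on 3R (6.31%). X stood above 3L and above 3R taken alone (exact test, adjusted p = 2.17e-05 and 2.30e-18), and its share was also above those of 2L, with 39 of 283 calls (13.8%), and 2R, with 39 of 337 (11.6%), which were not tested. Near the limits, the 2 calls just under 3 were a *297* at 2.98 and a *blood* at 2.99 and those just above were a *springer* at 3.03 and an *FB* at 3.11, while a *roo* at 0.969 and a *412* at 0.979 lay just under 1 and a *hobo* at 1.003 and an *S-element* at 1.01 just above.

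**Figure D1:**
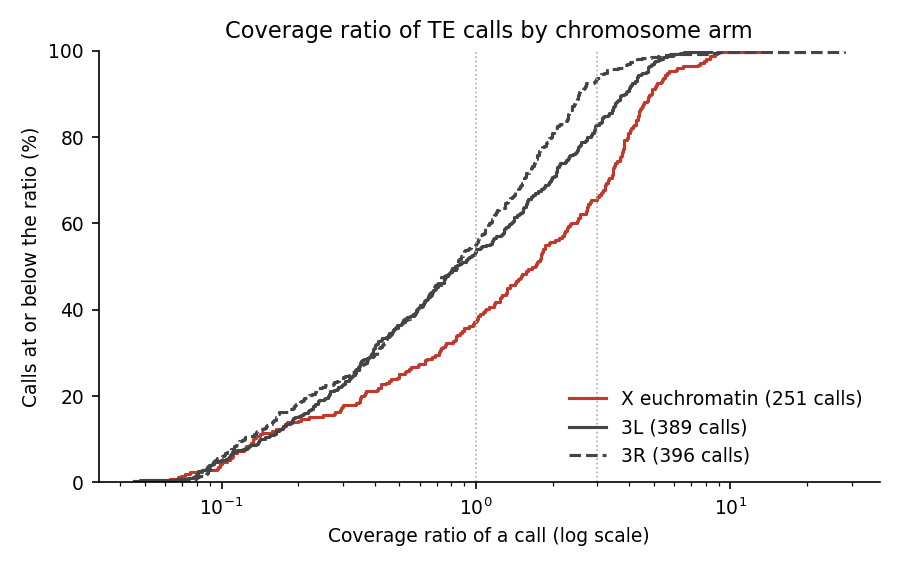
Cumulative percent of calls (vertical axis) at or below each coverage ratio (horizontal axis, log scale) on X euchromatin (251 calls), 3L (389) and 3R (396), with dotted lines at ratios of 1 and 3. The X curve lies to the right of both others at ratios from 1 to 3, and 33.9% of X calls reach 3 against 17.2% on 3L and 6.31% on 3R.

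The density of calls was similar on X and on chromosome 3, and the classes differed in opposite ways. X held 12.6 calls per Mb (exact 95% Poisson interval 11.1 to 14.2) and 3L and 3R held 13.1 (12.2 to 14.0), a ratio of 0.960 (two-sided exact conditional binomial test, adjusted p = 0.644). Calls whose coverage ratio was 3 or more were 2.78 times as dense on X, with 4.25 (3.40 to 5.26) against 1.53 per Mb (1.23 to 1.88, exact test, adjusted p = 2.51e-10). Calls with a ratio under 1 were less dense, with 4.65 (3.75 to 5.70) against 7.11 per Mb (6.45 to 7.81), a ratio of 0.654 (exact test, adjusted p = 3.34e-04). The lengths used for 3L and 3R run into their PCH, unlike that of X, and without the pericentromeric parts of chromosome 3 the density of all calls was 12.6 against 14.3 per Mb (exact test, adjusted p = 0.123).

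Along X, the 20 windows of 1 Mb held 8 to 20 calls each, with a median of 12. The variance of these numbers over their mean was 0.994, where calls placed independently and evenly give a value near 1. For calls of the upper class the windows held 0 to 10 and this value was 1.53, and for those under 1 they held 2 to 9 and it was 0.912. Calls with a high ratio were most frequent in the windows from 2 to 3 Mb, with 10, and from 3 to 4 Mb, with 9, and there was none from 17 to 18 Mb and 1 in each of the windows from 7 to 8 and from 18 to 19 Mb. In successive stretches of 5 Mb from the distal end, 45.6%, 31.7%, 36.7% and 20.6% of the calls had a ratio of at least 3, over 68, 60, 60 and 63 calls. The exact 95% intervals were 33.5% to 58.1% in the most distal and 11.5% to 32.7% in the most proximal stretch. These had the highest and the lowest share and were set side by side after their values were seen. The most distal stretch includes the genes *kirre*, with 6 of its 11 calls at a ratio of at least 3, and *dnc*, with 4 of 6. The share of calls under 1 was lowest in the most distal stretch (25.0%) and 48.3%, 40.0% and 36.5% in the next ones. These differences along X were not tested.

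**Figure D2:**
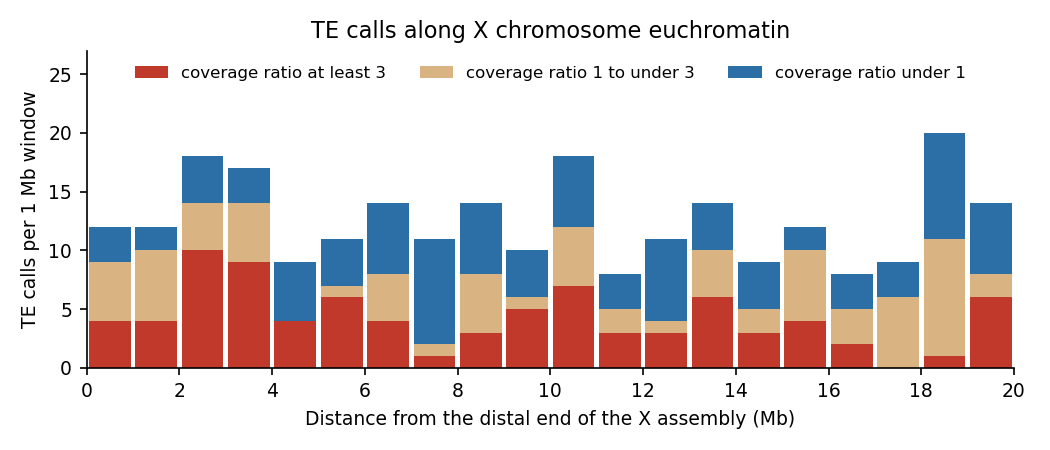
Number of TE calls (vertical axis) in each 1 Mb window of X euchromatin by distance from the distal end (horizontal axis), with the bar divided by coverage ratio. Windows held 8 to 20 calls, and the windows from 2 to 4 Mb held 10 and 9 calls of the upper class.

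At 100 kb, 64 of the 200 windows held no call, and the fullest held 6. Independent and even placement of 251 calls would give 57.0 windows with no call, 71.55 with 1, 44.9 with 2 and 18.8 with 3. It would give 5.89 with 4, 1.48 with 5 and 0.309 with 6. Found were 64, 70, 32, 24, 6, 3 and 1. Windows with 2 calls were thus fewer, and those with 3, 5 and 6 calls more, than under such placement. The difference was not tested. The window with 6, from 7.6 to 7.7 Mb, lies over *ct* (*cut*), which encodes a homeodomain transcription factor of the wing margin and sense organs, and reaches into *CHES-1-like*, which encodes a forkhead protein. All 6 of its calls had a ratio under 1. The 5 in introns of *ct* were a *flea* with 6 supporting reads and 44.2 reference reads, an *FB* with 5 and 44.2, a *jockey* with 7 and 62.7, an *FB* with 6 and 51.0 and a *412* with 6 and 41.5. Their ratios lay between 0.110 and 0.141, close to each other, and the *flea* and the *412* were not called from merged reads, in which the authors joined overlapping read pairs before calling. The sixth call, a *copia* in an intron of *CHES-1-like*, had 4 supporting reads and a ratio of 0.0630. The densest window of X thus rested on 34 supporting reads in all.

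The next windows held calls with higher ratios. The windows from 2.7 to 2.8 Mb and from 3.2 to 3.3 Mb each held 5 calls, 3 of them with a ratio of at least 3, and lie over *kirre* and *dnc*. The window from 10.4 to 10.5 Mb also held 5 calls of 5 families. Its *roo* beside *flw*, which encodes a catalytic subunit of protein phosphatase 1, had a ratio of 5.07, and in introns of CG32683 a *pogo* had 4.48, a *flea* 3.92, a *Quasimodo* 1.82 and a *jockey* 1.80. None of the 5 calls there was under 1. A further 6 windows held 4 calls each. One, from 15.4 to 15.5 Mb, held 3 calls in *Cngl* and the *micropia* in *Gmap* described below. The one from 18.5 to 18.6 Mb held an *FB* with a ratio of 0.0988 and an *opus* with 1.94 in *Bx*, the gene of a LIM-domain protein of wing development. The fullest window and the following 4 held 9.96% of the calls on X. The widest stretch without a call was 650.5 kb, from 10633073 to 11283616, and the median gap between calls was 47.6 kb.

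Some neighboring calls overlapped each other. Among the 251 calls on X, 3 pairs of calls of different families had overlapping intervals, against 16 pairs among the 785 calls on 3L and 3R. They were a *springer* (81 supporting reads) with a *gypsy6* (8) in *nAChRalpha3*, a *Stalker4* (69) with a *Stalker* (53) in CG6106, named after its values were seen, and a *Transpac* (92) with a *297* (17) in CG33253. Whether each pair is 1 insertion called under 2 family names was not tested, and all are counted as listed.

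Of the 38 families on X, 11 had at least 5 calls and 18 had a single one. *roo* with 65 calls (25.9%) and *FB* with 54 (21.5%) made up 119 of the 251. Both took a larger share on X than on 3L and 3R, where *roo* had 132 calls (16.8%) and *FB* 97 (12.4%). Among the 26 families tested, those with at least 10 calls over X and chromosome 3 together, these 2 passed an adjusted threshold of 0.05 (two-sided Fisher's exact test, adjusted p = 0.0287 for *roo* and 0.0167 for *FB*). *412* had 14 calls (5.58%) against 22 (2.80%), with an adjusted p of 0.359 by the same exact test. Both family calls were lost when the merged reads were used (Fisher's exact test, adjusted p = 0.0747 for each) and when the pericentromeric parts of chromosome 3 were left out (0.180 for *roo* and 0.0588 for *FB*). The differences in share stayed similar in size, at 9.16 percentage points for *FB* and 9.08 for *roo* as first given, 7.96 and 8.75 from merged reads and 8.32 and 7.26 without the pericentromeric parts. In the other direction, *17.6* had 10 calls on chromosome 3 and 0 on X (exact test, adjusted p = 0.359), and *Tabor* had 8 and 0 and was not tested.

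The families differed in how their X calls fell over the classes of ratio. *roo* had 29 calls of at least 3 and 20 under 1, with a median ratio of 2.52, whereas *FB* had 9 and 37, with a median of 0.611. The same families had medians of 0.710 and 0.407 on 3L and 3R. *opus* and *Transpac*, both LTR elements, had no X call under 1: the 9 *opus* calls had ratios of 1.81 to 6.18, with 7 of at least 3, and the 8 *Transpac* calls had 1.09 to 4.89, with 4 of at least 3. On chromosome 3, *opus* had 2 of 19 calls in the upper class and 7 under 1, and *Transpac* had 3 of 11 and 1. Few *Transpac* calls under 1 were thus not particular to X. *jockey* calls lay mostly in the middle class, with 10 of 16 from 1 to under 3. *412* had 5 calls of at least 3 and 6 under 1, and *297*, *I-element*, *flea*, *hobo* and *pogo*, with 7 to 10 calls each, had 1 to 3 of at least 3 and 2 or 3 under 1. The spread of a family over the classes was not tested.

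**Figure D3:**
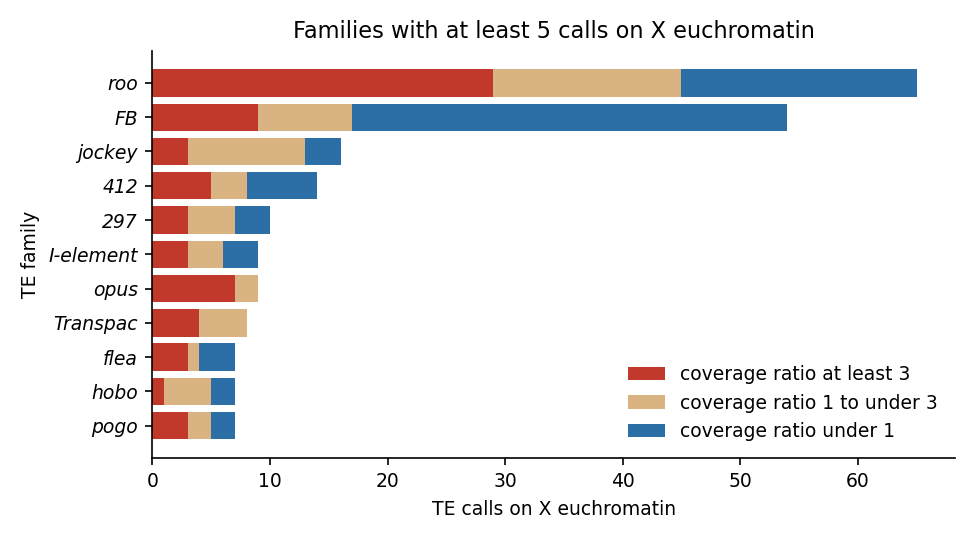
Number of calls on X euchromatin (horizontal axis) for the 11 families with at least 5 calls (vertical axis), divided by coverage ratio. *roo* has 29 of its 65 calls at a ratio of at least 3, and *FB* has 37 of its 54 under 1.

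By type, LTR elements gave 62 of the 85 X calls of the upper class (72.9%, with an exact 95% confidence interval from 62.2% to 82.0%) and 40 of the 93 under 1 (43.0%, 32.8% to 53.7%), a difference of 29.9 percentage points (two-sided Fisher's exact test, adjusted p = 2.18e-04). TIR elements took the opposite course, with 16 (18.8%) and 43 calls (46.2%), and non-LTR elements had 7 and 10. Most of the TIR calls were *FB*, and without *FB* the LTR shares were 81.6% and 71.4% (exact test, adjusted p = 0.228), so the call rested on that family. Against 3L and 3R the LTR share was 72.9% against 59.8% among calls of at least 3 (exact test, adjusted p = 0.121) and 43.0% against 44.7% among those under 1 (adjusted p = 0.818). Without *FB* these were 81.6% against 63.2% (adjusted p = 0.0245) and 71.4% against 54.6% (adjusted p = 0.0300, all by the exact test).

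Inside genes, that is in an intron, an exon or an untranslated region (UTR) by the authors' annotation, lay 200 of the 251 X calls (79.7%), against 63.8% on 3L and 3R. RefSeq genes cover 79.8% of the bases of X euchromatin, 64.8% of 3L and 72.8% of 3R. By these RefSeq genes, 82.5% of X calls and 67.3% of those on 3L and 3R overlapped a gene. By either annotation the share of X calls in genes was thus close to the share of X in genes. In the upper class, 65 of 85 calls were in genes on X (76.5%, with an exact 95% confidence interval from 66.0% to 85.0%) and 52 of 92 on 3L and 3R (56.5%, two-sided Fisher's exact test, adjusted p = 0.0116). Among calls under 1 these were 79 of 93 (84.9%, 76.0% to 91.5%) and 280 of 427 (65.6%, exact test, adjusted p = 3.60e-04). Within X, 76.5% against 84.9% gave an adjusted p of 0.244 by the same exact test, so that no difference between the classes was detectable with these numbers of calls. Without the calls in *kirre* and *dnc* the first comparison gave 73.3% against 56.5% (adjusted p = 0.0520), and with at least 10 supporting reads the second gave 77.8% against 63.8% (adjusted p = 0.103, all by the exact test).

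**Figure D4:**
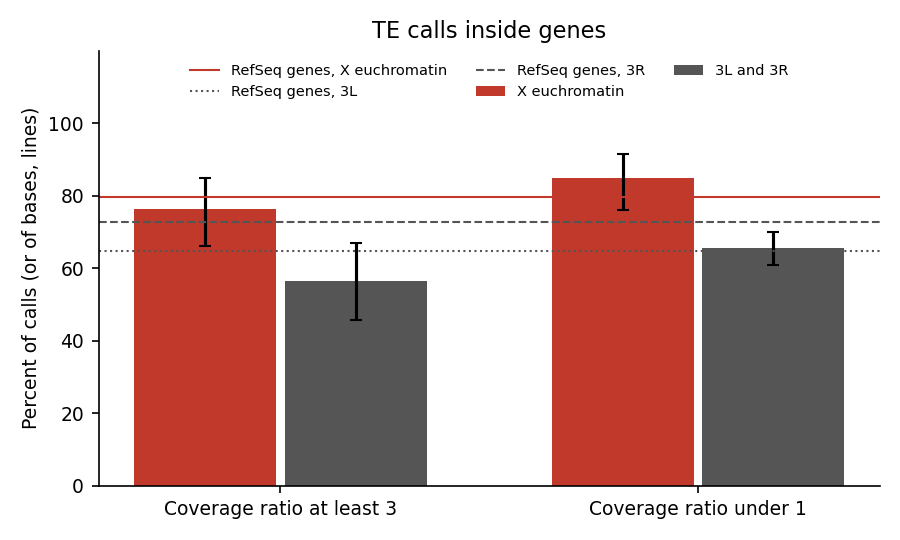
Percent of calls inside genes by the authors' annotation (vertical axis) by coverage ratio on X euchromatin and on 3L and 3R, with exact 95% confidence intervals as error bars. Lines mark the percent of bases in RefSeq genes on each arm (79.8% on X, 64.8% on 3L, 72.8% on 3R), and the X bars stand at 76.5% and 84.9% against 56.5% and 65.6%.

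Most X calls in genes were in introns. Of the upper class, 55 were in introns alone, 10 touched an exon or UTR and 20 were intergenic, and of those under 1, 64, 15 and 14. Among calls in genes with a ratio under 1, 15 of 79 touched an exon or UTR (19.0%) against 42 of 280 on 3L and 3R (15.0%, exact test, adjusted p = 0.465). The calls from merged reads gave 31.0% against 14.9% (exact test, adjusted p = 0.0122). Of *FB* calls, 52 of 54 were in genes, and of *roo* calls 46 of 65, beside 200 of all 251 X calls (79.7%). The 9 *opus* calls were all in genes. Differences between families in this share were not tested. Intergenic calls with a high ratio lay a median of 4.39 kb from the nearest RefSeq gene and at most 12.2 kb, and 2 of the 20 overlapped a RefSeq gene.

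Among the 10 exon or UTR calls of the upper class, genes outside the naming rule were chosen after their values were seen. An *opus* was in the 3′ UTR of *ssx*, a paralog of *Sex lethal*, with a ratio of 6.18 (139 supporting and 21.5 reference reads), and another *opus* in the 3′ UTR of *Rala*, a Ras-like GTPase, with 5.64 (115 and 19.4). A *roo* with a ratio of 4.72 was in the 3′ UTR of *Tsp3A*, a tetraspanin, and an *mdg3* with 4.35 in an exon of *hiw*, a ubiquitin ligase of synapse growth. In exons were also a *Transpac* with 4.76 in CG14207 and one with 4.89 in *rad*, a gene of memory. Of these 10 calls 8 were LTR elements, close to the 72.9% of the whole upper class on X, and the others were a *jockey* in CG1986 and an *S-element* in CG4558.

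The 10 calls with the highest ratios had 68 to 173 supporting reads and 4.3 to 22.2 reference reads, against the median of 33.0 for X. The highest, a *jockey* in the 3′ UTR of CG1986 between 9909208 and 9909299, had 70 supporting reads over 4.3 reference reads, a ratio of 13.2 (10.3 to 16.7, an exact 95% Poisson interval for its supporting reads), and its ratio was 4.04 from merged reads. Its supporting reads were fewer than the median of 116 for its class, so its place rests on the low number of reference reads. A *roo* shared by introns of CG15465 and *rg* had 131 supporting and 13.8 reference reads, a ratio of 8.85 (7.40 to 10.5). A *roo* in introns of *Flo2* and CG9518 had 141 and 15.2, a ratio of 8.70 (7.33 to 10.3). *rg* (*rugose*) encodes an anchor protein of protein kinase A and *Flo2* a flotillin of the plasma membrane. An *FB* in an intron of CG42340 had 140 and 15.9, a ratio of 8.28 (6.97 to 9.78). The intervals of the last 3 overlapped over most of their length, and that of the *jockey* overlapped them only at its lower end or not at all. They leave out the error of the reference reads, of which the *jockey* had 4.3 and the other 3 calls 13.8 to 15.9. These intervals therefore cannot set the *jockey* apart. The differences between these calls were not tested.

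Of the rest of these 10, a *micropia* in *Gmap*, the gene of a Golgi protein, had the most supporting reads of any X call, 173, with 22.2 reference reads and a ratio of 7.46 (6.39 to 8.66). Another *micropia* in introns of the non-coding RNA gene CR44999 and of CG12535 had 105 and 12.4, a ratio of 7.84 (6.41 to 9.49). A *roo* in an intron of CG44422 had a ratio of 6.49 (5.49 to 7.63), and an intergenic *roo* from 13550570 to 13550779, at 1.78 kb from the nearest RefSeq gene, CG11816, had 7.61 (6.21 to 9.24). The other 2 were in *kirre*. All 10 had a ratio of at least 3 from merged reads as well, from 4.04 to 21.5.

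*kirre*, an immunoglobulin-superfamily adhesion protein gene of myoblast fusion, was the host of most calls. Its span of 394 kb held 11 calls, all in introns, of which 6 had a ratio of at least 3 and 2 a ratio under 1. In order along the chromosome they were an *I-element* with a ratio of 1.36, an *Ivk* with 3.23, a *BS* with 1.86, *FB* calls with 4.01, 8.29 and 3.43, *roo* calls with 0.643, 8.02 and 0.863, a *Burdock* with 2.76 and an *mdg1* with 3.57. Calls with high and low ratios lay beside each other: the *roo* with 0.643 had 29 supporting and 44.1 reference reads, and the *roo* with 8.02, the next call along the gene, had 138 and 16.2.

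The *FB* with a ratio of 8.29, between 2793890 and 2793981, is also in an intron of *w* (*white*), which lies within *kirre* on the other strand and encodes a transporter of eye pigment precursors. It had 68 supporting and 7.2 reference reads, and the next *FB*, from 2802285 to 2802379, had 46 and 12.4. Both had fewer supporting reads than is usual for their class (median 116) and few reference reads (median for X, 33.0), and merged reads gave 21.5 and 10.4. The part of the w1118 allele itself in these reads was not tested.

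*dnc* (*dunce*), the cAMP phosphodiesterase gene of learning, lies further along the chromosome, and its 167 kb held 6 calls of 6 families, all in introns. An *I-element* had a ratio of 4.24 (142 supporting and 32.5 reference reads), a *297* had 3.78 (94 and 23.9), a *roo* 4.13 (93 and 21.5) and an *FB* 3.11 (78 and 24.1). A *hobo* with 1.57 and a *412* with 2.37 were in the middle class. None of the *dnc* calls was under 1, in contrast to *ct*, where all 5 were. Per 100 kb, *ct* held 7.10 calls, *dnc* 3.59 and *kirre* 2.79, so the order of density was not the order of number. Without the calls in *kirre* and *dnc*, 32.1% of X calls had a ratio of at least 3, still 20.3 percentage points over 3L and 3R (exact test, adjusted p = 4.96e-11).

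**Figure D5:**
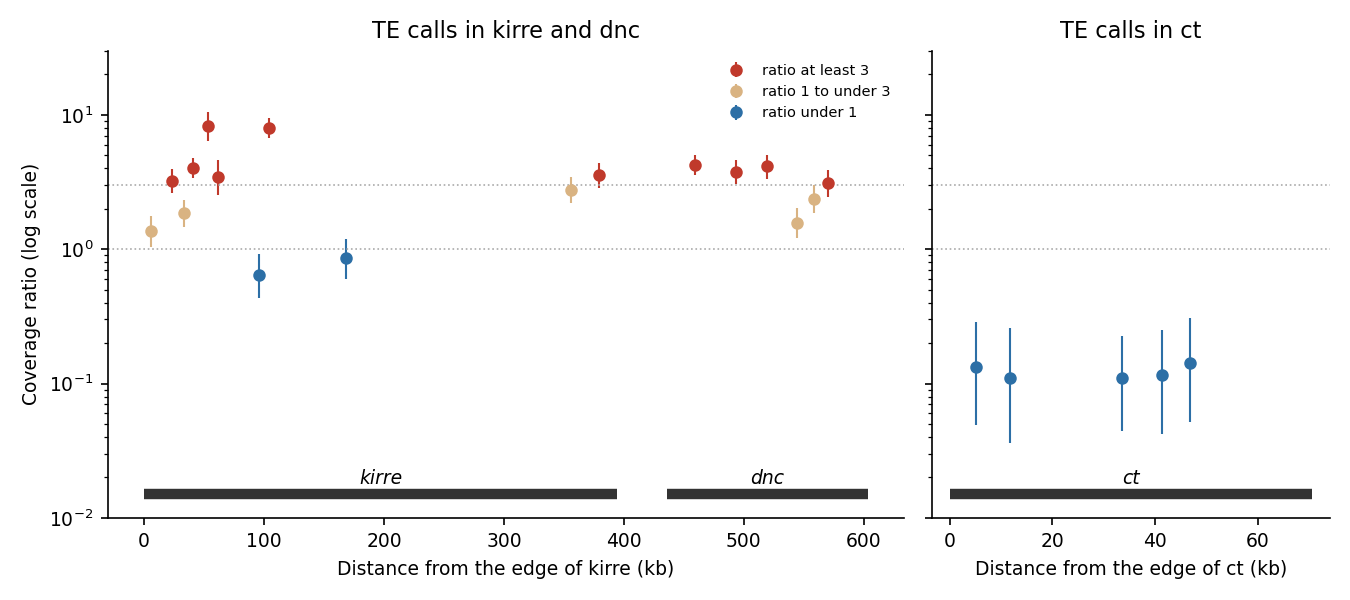
Coverage ratio (vertical axis, log scale) of each TE call in *kirre* and *dnc* (left) and *ct* (right) by distance from the lower-coordinate edge of *kirre* or *ct* (horizontal axis, kb), with exact 95% Poisson intervals of the supporting reads as error bars and black bars for the RefSeq gene spans. *kirre* calls run from 0.643 to 8.29 and *dnc* calls from 1.57 to 4.24, and the 5 *ct* calls lie between 0.110 and 0.141.

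In all, the annotation named 140 host genes on X, 98 with 1 call, 22 with 2 and 20 with 3 or more. Calls of the upper class lay in 60 of the 140 genes and calls under 1 in 67, with 16 genes in both. A gene with 1 call cannot be in both, and 13 calls of the upper class and 7 under 1 were listed under 2 genes. Whether the overlap is large or small was not tested. CG3777 held 5 calls in 70.8 kb, with 2 *roo* at 3.49 and 4.24, a *Burdock* at 3.74, a *roo* at 1.73 and a *springer* at 0.280. CG15465 and *rg* share 1 span and hence the same 4 calls, with the *roo* of 8.85, an *FB* of 4.90, a *jockey* of 1.43 and a *hobo* of 0.158. *Pde9*, a phosphodiesterase gene, held a *roo* with 3.20, a *Quasimodo* with 1.19 and *FB* calls with 0.835 and 0.631, and CG13366 held 2 *roo*, an *FB* and a *hobo* with ratios of 0.0835 to 2.51.

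Of the hosts with 3 calls, *rad* had the highest lowest ratio, with *Transpac* calls of 3.69 and 4.89 and a *Quasimodo* of 2.28. CR44894, a non-coding RNA gene, held an *mdg3* of 3.31 and an *opus* of 3.21 and 1 call under 1. *Cngl*, a cyclic nucleotide-gated channel gene, held 3 calls of the middle class, from 1.09 to 2.23. *Flo2* combined the *roo* of 8.70 with an *FB* of 0.936 and an *I-element* of 0.0612, the lowest ratio on X. *nAChRalpha3*, a subunit of the nicotinic acetylcholine receptor, held calls from 0.144 to 3.03, and *spri*, the gene of a Ras-pathway protein, calls from 0.163 to 2.80. The remaining ones, CG42340, CG43759, CR32773 and CR44999, each had 2 calls under 1, and their highest ratios were 8.28, 1.83, 3.51 and 7.84.

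Hosts were long genes. Of 2002 protein-coding genes of X euchromatin, 130 held a call (6.49%), and they had a median span of 26.5 kb against 2.54 kb for all. Of the 501 longest of these genes 106 held a call (21.2%) and of the 501 shortest 2 (0.399%). Of the 20 longest genes 14 were hosts. A long gene offers more bases for a call, and density per base of gene was not tested.

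Calls with a ratio under 1 had 4 to 44 supporting reads. Of the 93, 39 had fewer than 10, and 65 (69.9%) had a counterpart of the same family at the same site among the calls from merged reads, compared with 85 of 85 for the class of at least 3. From merged reads, 61 of the 65 had a ratio under 1 and 4 a ratio from 1 to under 3, and 78 of the 85 had a ratio of at least 3 and 7 a ratio from 1 to under 3. The 28 without one had a median of 5 supporting reads. The 11 with most supporting reads had 34 to 44. A *297* in the 3′ UTR of *fs(1)h*, the gene of a bromodomain protein, had 44 supporting and 64.7 reference reads, a ratio of 0.670 (exact 95% Poisson interval 0.487 to 0.899). A *roo* in the 3′ UTR of *X11L*, an adaptor protein gene, had 44 and 44.4, a ratio of 0.969 (0.704 to 1.30). With the error of the reference reads left out, the first call has an interval below 1 and the second does not.

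Next in supporting reads were a *412* in CG42340 with a ratio of 0.979 and a *jockey* with 0.729. The annotation classed this *jockey* as intergenic by *XRCC1* and *CanB*, but it overlapped *CanB* in RefSeq. Another *jockey* in an intron of *Pvf1* had 0.717 and an *FB* in an intron of *C3G* 0.894. *XRCC1* acts in DNA strand break repair, *CanB* encodes the regulatory subunit of calcineurin, *Pvf1* a ligand of the PDGF and VEGF receptor and *C3G* an exchange factor of Rap1. *His3.3B*, a gene of histone H3.3, held an *S-element* with 0.880 in its 3′ UTR, while a *roo* in *kirre* had 0.863 and a *pogo* in CG13003 0.825. *FB* calls with 34 supporting reads each were in *Pde9* and CG5004. These 11 calls were all present among the calls from merged reads, but 4 of them had a ratio of at least 1 there, the *roo* in *X11L* with 1.12, the *412* in CG42340 with 1.16, the *FB* in *C3G* with 1.02 and the *pogo* in CG13003 with 1.35. The genes with at least 2 calls under 1 included *ct* with 5 and, with 2 each, CG14431, CG34449, CG43921, CG5004, CG13366, *kirre*, *nAChRalpha3*, *Pde9* and *Flo2*. CG14431 held a *412* with a ratio of 0.111 and a *pogo* with 0.546, CG34449 held *FB* calls with 0.425 and 0.122, and CG43921 held a *roo* with 0.299 and a *TART-C* with 0.125 in its 5′ UTR. The *412*, the *TART-C* and the *FB* with 0.122 had 4 supporting reads each, and the other *FB* had 20. None of these was called from merged reads, unlike the *pogo* and the *roo*.

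Genes known for visible mutant phenotypes were looked at as a list of 29 X markers, of which 28 lie in the euchromatin. Calls were found in 4 of the 28 (14.3%), against 151 of all 2426 RefSeq genes of the same region (6.22%). These were *w* and *rg* with the calls given above, *ct* with 5, and *f* (*forked*), the gene of an actin-bundling protein of bristles, with an *opus* of ratio 1.81 (47 supporting and 25.0 reference reads). Genes such as *y* and *ac* held none. Of 8 genes of sex determination and dosage compensation, 6 lie in the region and 0 held a call. The 4 marker hosts span 169 kb (*rg*), 70.4 kb (*ct*), 48.0 kb (*f*) and 5.87 kb (*w*), against a median of 2.54 kb for protein-coding genes of X euchromatin. Of the 501 longest of those protein-coding genes, 106 held a call (21.2%). Neither list was tested against other genes, and neither share takes gene length into account.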

How the data were processed

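The data are genomic DNA reads of ORw1118 from adult females, in 3 biological replicates that the authors trimmed (Trim Galore, per the submitters' processing notes), pooled and passed to TIDAL with a list made from read pairs taken as single reads and another from pairs merged and trimmed to 200 bp. The first list gave all results, and the second, of 1487 calls with 221 on X euchromatin, served as an alternative. The count of supporting reads was deposited by the authors without normalization, per call and per side. The reference reads are a signal that the authors normalized with TIDAL in a way not given in the sources used here. The ratio deposited by the authors is rounded and was recomputed as supporting reads over reference reads plus 1 (largest difference 0.05). With the rounded ratio, 87 X calls in place of 85 reach 3 and 91 in place of 93 are under 1 (279 and 870 of the whole list, in place of 272 and 887). The deposited fraction of reads on one side and the deposited BLAT score entered no comparison and no filter here. Reads per side are given for single calls only, and no BLAT score is given. The width of an interval and the gene annotation are also as the authors gave them. Sequencing depth per replicate was not analysed here, and precision is set by the 4 to 173 supporting reads of a call.

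Chromosome lengths were taken as 20 Mb for X and the end of the last RefSeq gene for 3L (28.0 Mb) and 3R (32.1 Mb), in Release 6. Of 140 host names, 138 matched RefSeq, and *ptr* and *rad* did not. TE types were assigned by hand, with families not listed as TIR, non-LTR or Helitron counted as LTR. For shares, Fisher's exact tests were used, two-sided, and for densities two-sided exact conditional binomial tests, with Benjamini-Hochberg adjustment over 12 comparisons, or over 26 families. Intervals are exact (Clopper-Pearson or Poisson) at 95%, and those of a ratio leave out the error of the reference reads. Loci share 1 pooled sample and are not replicates. The tests were checked on simulated tables. Members, gene lists and tests were chosen with earlier results of these data known. Named were hosts of the 10 highest ratios, of at least 3 calls, of at least 2 calls under 1 and of the 10 calls under 1 with most reads (11 with a tie), families with at least 5 calls, calls of the fullest 100 kb windows, and the marker lists. Alternatives were merged reads, a minimum of 10 supporting reads, ratio limits of 2, 5 and 0.5, chromosome 3 without 3L from 20 Mb and 3R up to 7 Mb, and RefSeq gene bodies, and, added after seeing the data, 3L or 3R alone, no *FB*, no *roo*, no calls in *kirre* and *dnc*, and the rounded ratio. Tests ran in scipy 1.17.1 under Python 3.11.15, tables in pandas 2.3.3 with numpy 2.4.6, and plots in matplotlib 3.10.9. Wildtype strains, ChIP-seq and Hi-C data were not analysed here. One host gene on X with several calls is counted in the totals and is not reported here by name.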

Additional observations from a re-analysis of the deposited data

Results flagged for a closer look

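Of the X calls outside the euchromatic limit, those that start at 20 Mb or further from the distal end and enter no comparison of the report, 14 of 26 reached a coverage ratio of 3 (53.8%, exact 95% confidence interval from 33.4% to 73.4%) and 10 were under 1. They were singled out because a signal of the same kind appears in data that the comparisons leave out. The difference from the 33.9% of X euchromatin was not tested.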

How the results depend on the processing

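Of 136 values under alternatives, 114 kept their direction and their side of the threshold. The higher share and density of calls with a ratio of at least 3 on X did so under each alternative run, with density ratios of 1.76 (limit of 2) to 5.45 (3R alone). The alternatives with single arms, without *FB*, without *roo*, without *kirre* and *dnc* and with the rounded deposited ratio were chosen after seeing the data. Differences are in percentage points, X minus chromosome 3 unless stated. Against 3R alone, the density ratio of all calls was 1.02, the LTR difference 32.9 (adjusted p = 0.00643, Fisher's exact test, as for all shares) for ratios of at least 3 and 3.56 (0.670) under 1, and the genic difference at least 3 was 16.5 (0.170). Against 3L alone, the exonic difference was -1.47 (0.860). Without *FB*, the LTR differences were 18.4 and 16.9, the exonic one 15.5 (0.0432), and the LTR difference between classes on X 10.2 (0.228). Without *kirre* and *dnc*, the LTR difference at least 3 was 17.6 (0.0340) and the genic one 16.8. With at least 10 supporting reads the genic difference under 1 was 14.0, with a limit of 0.5 the LTR difference was 3.83 (0.674), and with merged reads the exonic difference was 16.2. Of the 2 families called, 0 remained past the threshold with merged reads, 0 without pericentromeric chromosome 3 and 1 (*roo*) with at least 10 reads. The causes were not tested. The exonic share was not run with RefSeq gene bodies, since that table holds no exons. No paired analysis was possible because the replicates were pooled before calling, so none could be left out either. Calls with 4 to 9 supporting reads limit the class under 1.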
